A study of Mus musculus with 6 samples.

Results

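Regions of mouse chromatin that carried signal of both the T set and the S set under TGF-b were compared with regions that carried signal of only one of them. T set regions were selected on a normalized density of at least 5 in the TGF-b library of the T set, and S set regions were selected on the same density in the TGF-b library of the S set. The members are therefore chosen by measured values, and their density and overlap are given as a description. Of 170877 T set regions, 51269 (30.0%) passed, and of 52712 S set regions, 21458 (40.7%) passed, with the mitochondrial chromosome left out. A T set region was called co-occupied when it shared at least 1 bp with an S set region that also passed. This gave 3570 co-occupied T set regions and 3471 co-occupied S set regions in 3611 pairs, and left 47699 T only and 17987 S only regions.

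The cells were primary mouse cardiac fibroblasts, and each set held 3 CUT&Tag libraries, 1 per treatment. CUT&Tag uses an antibody to bring a transposase to chromatin, so that reads gather where the antibody's target sits. Cells were labelled NC or were given TGF-b, alone or together with an siRNA named SiTAZ in the T set and SiSRF in the S set. The study's text instead describes siRNA against Piezo2, so that no target is given here. No label names the antibody. The study lists antibodies against TET3, SRF and TAZ for CUT&Tag. It states that this series holds its SRF and TAZ data and that its TET3 CUT&Tag data were deposited as another series. S is therefore read as SRF and T as TAZ, which also fits the siRNA names. NC is not spelled out in the labels. The study's mouse strains had a C57BL/6 J background, and the age and sex of the mice that gave these cells are not given in the sources used here. With 1 library per group there is no replicate error, no test of a treatment is possible, and the intervals below are 95% intervals of counting error alone. The tables hold 5 reads (T set) and 10 reads (S set) per region at the median in the TGF-b libraries, so single regions near the threshold rest on few reads.

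TAZ, encoded by Wwtr1, is a coactivator of the Hippo pathway that does not bind DNA itself and reaches it mainly through TEAD factors. SRF binds the CArG box and, with the MRTF coactivators that respond to actin, drives genes of the cytoskeleton and of smooth muscle. Both are known for their part in turning fibroblasts into contractile myofibroblasts, the cell state that TGF-b induces.

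The stretches below are the 250 bases before the start of 7 genes, shown because these genes carry the 2 motifs in question or lack them where both signals lie. They come from RefSeq promoters on GRCm38.p6 and run 5′ to 3′ along the gene. Capitals mark the CArG box and the TEAD letters GGAATG on either strand. Vcl, Fhl2, Vgll3 and Myh9 had a co-occupied region near a start, whereas Srf, Ccn1 and Ankrd1 had T set regions past the threshold and no such S set region.
Vcl (vinculin, chr14:20929148-20929397, plus strand): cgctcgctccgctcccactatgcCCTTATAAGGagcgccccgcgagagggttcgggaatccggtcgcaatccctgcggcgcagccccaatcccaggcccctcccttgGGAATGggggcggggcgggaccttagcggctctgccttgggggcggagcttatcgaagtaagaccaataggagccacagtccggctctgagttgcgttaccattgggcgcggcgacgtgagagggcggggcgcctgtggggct
Fhl2 (first start, chr1:43196762-43197011, minus strand): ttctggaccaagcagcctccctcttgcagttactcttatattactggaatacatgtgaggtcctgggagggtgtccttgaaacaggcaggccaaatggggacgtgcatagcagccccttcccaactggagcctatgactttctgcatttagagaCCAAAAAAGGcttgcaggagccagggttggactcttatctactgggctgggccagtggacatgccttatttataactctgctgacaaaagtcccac
Fhl2 (second start, chr1:43163962-43164211, minus strand): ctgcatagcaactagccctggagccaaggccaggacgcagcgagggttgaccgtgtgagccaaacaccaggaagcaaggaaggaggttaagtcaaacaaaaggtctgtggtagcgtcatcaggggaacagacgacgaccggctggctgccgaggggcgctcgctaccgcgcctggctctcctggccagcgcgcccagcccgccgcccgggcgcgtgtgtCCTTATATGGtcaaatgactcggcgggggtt
Vgll3 (chr16:65814939-65815188, plus strand): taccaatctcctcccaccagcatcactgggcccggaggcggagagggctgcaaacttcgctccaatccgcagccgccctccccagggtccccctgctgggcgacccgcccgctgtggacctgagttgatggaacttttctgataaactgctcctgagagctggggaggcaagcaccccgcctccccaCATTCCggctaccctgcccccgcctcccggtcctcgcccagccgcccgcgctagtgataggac
Myh9 (chr15:77842176-77842425, minus strand): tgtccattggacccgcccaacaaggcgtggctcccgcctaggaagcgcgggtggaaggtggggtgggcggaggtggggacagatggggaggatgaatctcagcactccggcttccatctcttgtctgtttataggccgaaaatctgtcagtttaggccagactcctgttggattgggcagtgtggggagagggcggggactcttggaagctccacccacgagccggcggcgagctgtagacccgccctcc
Srf (chr17:46556163-46556412, minus strand): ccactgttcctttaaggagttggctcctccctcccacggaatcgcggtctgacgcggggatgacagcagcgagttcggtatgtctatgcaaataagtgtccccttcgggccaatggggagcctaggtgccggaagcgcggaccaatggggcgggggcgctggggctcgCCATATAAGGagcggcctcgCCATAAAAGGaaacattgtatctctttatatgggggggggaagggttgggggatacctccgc
Ccn1 (chr3:145649986-145650235, minus strand): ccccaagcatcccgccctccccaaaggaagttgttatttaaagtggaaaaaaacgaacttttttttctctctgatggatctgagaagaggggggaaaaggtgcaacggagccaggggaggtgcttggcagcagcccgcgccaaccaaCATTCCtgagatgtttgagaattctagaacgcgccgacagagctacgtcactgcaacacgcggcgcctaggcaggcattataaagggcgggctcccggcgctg
Ankrd1 (chr19:36119845-36120094, minus strand): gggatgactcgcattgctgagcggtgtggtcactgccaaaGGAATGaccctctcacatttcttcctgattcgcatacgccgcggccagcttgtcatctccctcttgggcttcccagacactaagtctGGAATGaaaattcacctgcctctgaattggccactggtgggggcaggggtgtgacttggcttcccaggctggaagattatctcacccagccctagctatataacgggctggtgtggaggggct
The Vcl stretch held a CArG box that begins 227 bases before the start and a TEAD motif at 143 bases. Each Fhl2 stretch held 1 CArG box, and the Srf stretch held 2, at 82 and 62 bases. The Vgll3 and Ccn1 stretches held the TEAD letters once and that of Ankrd1 held them 2 times. The Myh9 stretch held neither motif. In these genes the letters were thus found with and without a co-occupied region. The deposited coordinates are on another build (GRCm39, as judged from the region ends), so these stretches were matched to regions by gene and not by position. Fhl2 has 2 starts and 1 co-occupied pair in the tables, so at most 1 of its stretches lies next to that pair, and which one was not determined.

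Co-occupied regions made up a small part of either set. They were 6.96% (6.75 to 7.19) of T set members and 16.2% (15.7 to 16.7) of S set members. The T set held more members and the overlap was nearly 1 to 1, which makes the shares unequal, and they depended on the rule by far more than these intervals. The T set share was 13.3% with densities of the same library from the siRNA table, and the S set share was 35.2% and 46.9% at thresholds of 10 and 20. The overlapping regions lay almost on top of each other. Their centres were 49 bp apart at the median (47 to 51), and 88.5% of pairs shared at least 50% of the shorter region. Where both tables named a gene, it was the same gene in 2745 of 2893 pairs. In bulk libraries, overlap shows that both signals were present in the population of cells. Signal in more cells and more signal per cell cannot be told apart, nor can the 2 signals be placed in the same cell.

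The share of overlap rose with density on either side. It was 1.97% of T set members with a density of 5 to 7, 10.4% at 10 to 20, 32.4% at 20 to 50 and 70.5% (65.1 to 75.3) at 50 or more. Among S set members it was 7.90% at 5 to 7, 37.4% at 10 to 20 and 81.7% (72.0 to 88.6) at 50 or more. This last class held 82 S set regions and differed in kind. Promoters made up 2.99% of its 67 overlapping regions, against 62.4% of those at 10 to 20. There was no step at the threshold. Regions just inside it in the T set, with 9 reads, overlapped in 1.66% of 7068 cases, and those just outside, with 8 reads, in 1.28% of 8562. In the S set the shares were 6.25% of 2910 regions with 12 reads and 5.92% of 3309 regions with 11 reads. Few of the regions left outside the overlap had a weak partner, since 2.22% of T only regions overlapped an S set region below 5 and 4.95% of S only regions overlapped a T set region below 5. A member of the other set lay within 1 kb, centre to centre, of 4.37% of T only and 7.24% of S only regions, so that their 2 kb windows overlap.

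**Figure D1:**
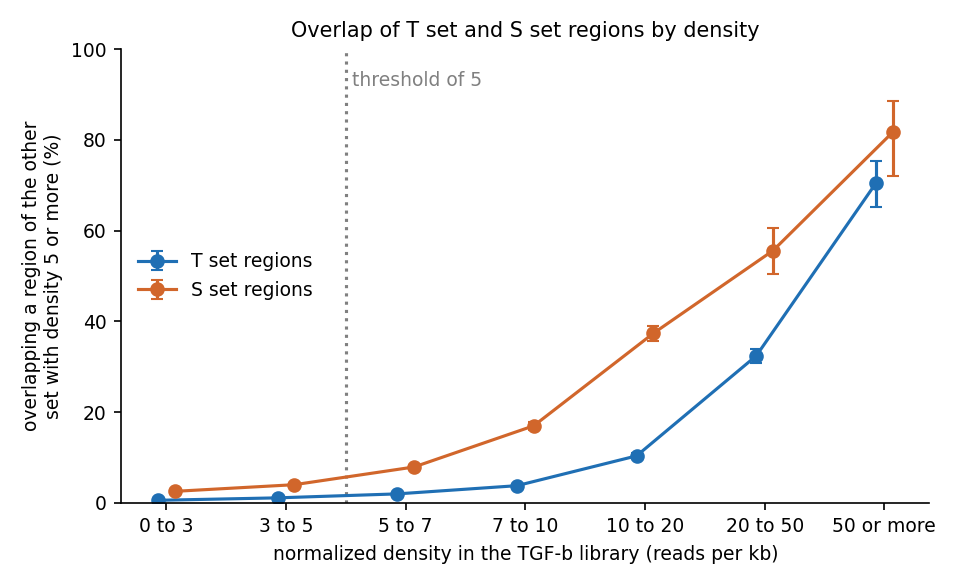
Share of T set regions (blue) and S set regions (orange) that overlap a region of the other set with a density of at least 5, by their own density in the TGF-b library. Points are shares, bars are 95% Wilson intervals, and the dotted line marks the threshold. The share climbs to 70.5% and 81.7% in the densest class, which holds 305 T set and 82 S set regions.

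Co-occupied regions were denser than the others, as the bins already show. The median density was 16.1 in co-occupied and 7.31 in T only regions, from 31 and 13 reads. In the S set it was 9.42 in co-occupied and 6.59 in S only regions, from 22 and 15 reads. Co-occupied T set regions were 235 bp long at the median and T only regions 129 bp. Lengths in the S set were 221 bp and 168 bp. The authors had called 55.1% of co-occupied T set regions as peaks in both NC and TGF-b, against 13.7% of T only regions. In the S set these shares were 20.2% and 1.86%. Regions called as peaks in NC alone made up 16.5% of co-occupied T set and 41.8% of T only regions. In the S set they made up 23.2% and 28.0%. They passed the rule on density and were not called as peaks in the TGF-b library.

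Co-occupied regions lay at promoters, the stretches at which transcription starts, more often than the other regions. The deposited annotation placed 49.5% of co-occupied T set regions in promoters, against 13.9% of T only regions, a difference of 35.6 percentage points (33.9 to 37.2). For the S set the shares were 47.7% and 5.56%, a difference of 43.9 points (42.2 to 45.6). The 5' UTR followed the same pattern, with 8.99% of co-occupied T set regions against 2.65% of T only regions, and 10.4% against 1.45% in the S set. Introns went the other way, holding 16.9% of co-occupied T set regions and 44.1% of T only regions. Of S only regions 50.1% had no gene assigned, against 19.4% of co-occupied S set regions. Seen from the annotation, 62.3% of S set members in promoters were co-occupied, but 8.25% of those in introns and 6.94% of those with no gene. For T set members the shares were 21.0%, 2.80% and 4.43%.

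**Figure D2:**
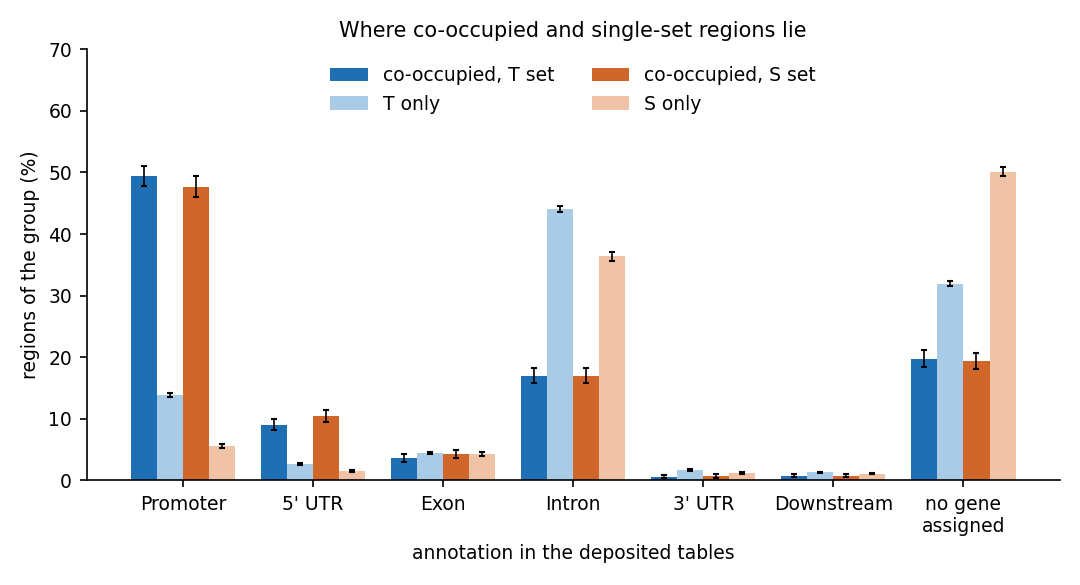
Percent of regions in each annotation class for co-occupied T set (dark blue), T only (light blue), co-occupied S set (dark orange) and S only (light orange) regions, with 95% Wilson intervals. Promoters hold 49.5% and 47.7% of the co-occupied regions and 13.9% and 5.56% of the others.

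Because promoters and density go together, the promoter share was also compared within bins of density. In the T set it was higher in overlapping regions by 8.91 points at a density of 5 to 7, by 24.98 points at 10 to 20 and by 29.1 points at 20 to 50. In the S set the difference was 26.3 points at 5 to 7, 51.5 at 10 to 20 and 43.2 at 20 to 50. Among the 82 S set regions at 50 or more it was -3.68 points (-26.9 to 5.42), so that no difference was detectable there. With the threshold raised to 20 in either set, the difference from T only fell to 2.51 points (-4.07 to 8.99). Co-occupied regions sat just upstream of the start. Of those within 1 kb of one, the T set regions lay at -59 bp at the median, with quartiles of -131 and -4 bp, and the S set regions at -56 bp. T only regions within 1 kb spread more widely, with quartiles of -142 and 156 bp. On X, 4.76% of T set members were co-occupied, from 27 regions, against 5.97% to 8.42% on the autosomes.

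The letters of sequence motifs were then counted in promoters of genes with a co-occupied pair within 1 kb of the start. Gene models without a symbol were left out, and 1486 of 1824 genes (81.5%) matched a RefSeq promoter, with 1932 promoters of 300 bases in all. Every start of a matched gene was counted, also one away from the pair, and all of them are called co-occupied promoters below. Among genes with T set regions only and S set regions only at the start, 79.0% and 72.0% matched, which falls short of the 80% required here, so that no comparison with them was made. All 20122 promoters of named genes served instead, and these include both groups and genes with no region. Neither the motif of SRF nor that of the TEAD factors was more frequent at co-occupied promoters, with starts away from the pair mixed in. The CArG box (CC, any 6 of A or T, GG) was in 1.29% (0.878 to 1.90) against 1.496% of all, and the TEAD letters GGAATG were in 11.8% (10.4 to 13.3) against 13.2%. The AP-1 letters TGANTCA were less frequent, in 4.92% (4.04 to 5.97) against 7.14%. Letters of the SP, KLF and ETS factors, which bind many promoters, were more frequent. The SP and KLF letters GGGCGG were in 71.9% (69.9 to 73.9) against 48.0%, and the ETS letters CCGGAAG were in 16.8% (15.2 to 18.6) against 11.8%. The E-box CACGTG was in 9.06% against 8.15%, the CTCF motif in 1.60% against 1.04%, and the SMAD palindrome GTCTAGAC in 0.362% against 0.234%, with 7 promoters in the first group.

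Base composition moved with these shares. The median GC content was 63.0% at co-occupied promoters and 57.0% at all of them, and the ratio of observed to expected CpG was 0.779 and 0.595. Among promoters of 60 to 70% GC, the SP and KLF letters were in 86.2% of 857 co-occupied and 77.2% of all promoters, the ETS letters in 21.4% and 19.5%, the TEAD letters in 9.92% and 10.8%, the AP-1 letters in 3.85% and 4.07%, the CArG box in 1.28% and 1.04% and the E-box in 9.80% and 11.4%. Within that range of GC content the differences for SP and KLF, ETS and AP-1 were thus smaller. For all motifs but SP and KLF and ETS, which group was higher changed with the range of GC content. Below 50% GC the CArG box was in 1.81% of 166 co-occupied and 2.22% of all promoters, and the TEAD letters were in 17.5% and 16.2%. At 70% GC or more the AP-1 letters were in 2.46% of 366 co-occupied and 2.04% of all promoters. Over all 32851 promoters in the table, gene models included, the shares were 1.63% for the CArG box, 14.7% for TEAD, 7.81% for AP-1, 35.7% for SP and KLF, 8.86% for ETS, 7.15% for the E-box, 0.916% for CTCF and 0.213% for the SMAD palindrome. Both strands were searched and motifs were counted on their own where they overlapped. A match is a run of letters and not a bound site, and the regions' own sequences were not read.

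**Figure D3:**
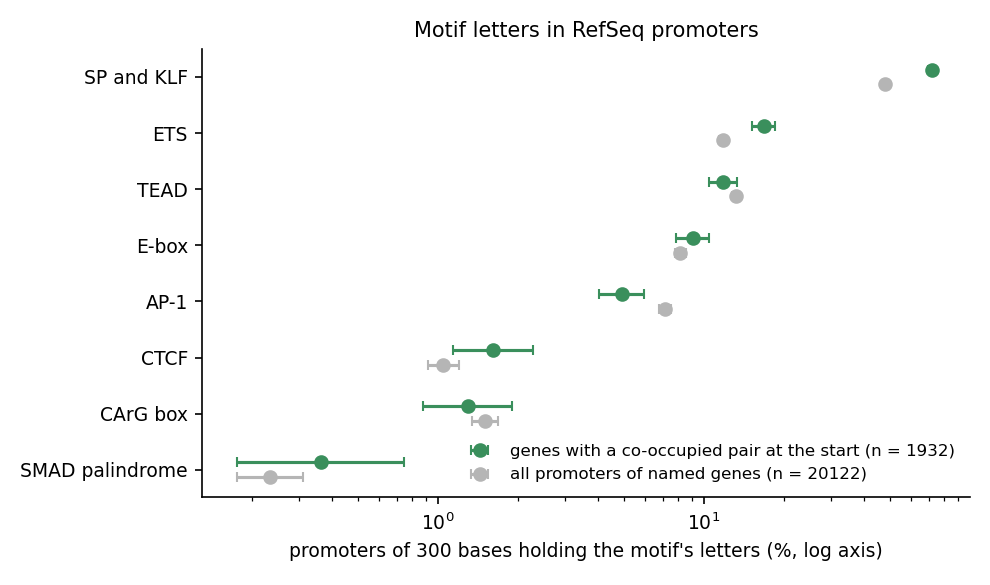
Percent of 300-base RefSeq promoters that hold the letters of each motif on either strand, on a log axis, for genes with a co-occupied pair near the start (green, 1932 promoters) and all named genes (grey, 20122 promoters), with 95% Wilson intervals. The green and grey points part for SP and KLF (71.9% and 48.0%), ETS and AP-1, and their intervals overlap for the CArG box.

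Densities of the 2 sets rose together across pairs. Spearman's rho was 0.51 over 3611 pairs, 0.56 over the 1519 pairs annotated as promoter in both tables and 0.41 over the 717 pairs with no gene in either. These are descriptions across regions, which share their libraries, their length and base composition, and overlapping windows of 2 kb. The balance of the sets differed with the kind of region. The S set library had more reads than the T set library in 14.7% of promoter pairs (224 of 1519) and in 59.5% of pairs with no gene under 500 reads (416 of 699). Promoter pairs held 43 T set and 24 S set reads at the median, and pairs with no gene 19 and 19. The depth of the libraries is unknown, so that only the contrast between the kinds of region can be read.

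A small group of pairs stood far above the rest. In 25 pairs either library held 500 reads or more, 19 of them had no gene, and all 25 had more S set than T set reads. The highest, at chr2:98496918-98497656 on GRCm39, held 6548, 4988 and 3776 T set reads and 24275, 20055 and 19621 S set reads in NC, TGF-b and TGF-b with siRNA. Several others lay close together, among them neighbours on chromosomes 2, 14 and 17, and neighbouring regions can share windows and reads. Without members of 500 reads or more, the share of T set members that were co-occupied and the promoter differences moved by less than their intervals.

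**Figure D4:**
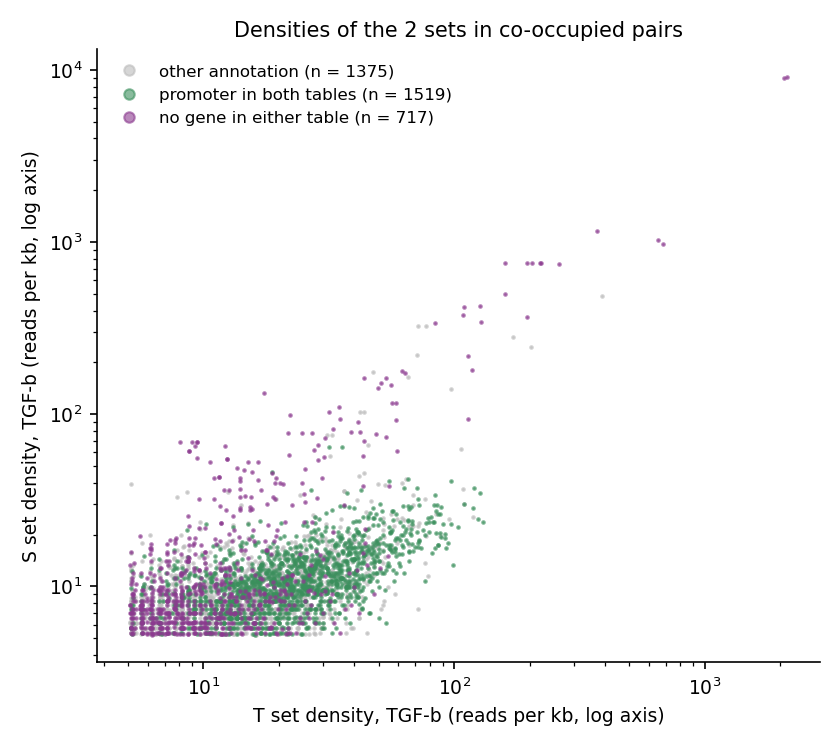
Density of the T set (x axis) and of the S set (y axis) in the TGF-b libraries for the 3611 co-occupied pairs, both in reads per kb on log axes and normalized in separate tables. Promoter pairs (green) form the dense cloud on the T set side, and pairs with no gene (purple) make up most of the points at high S set density.

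Among pairs under 500 reads that both tables assigned to the same gene, 1 pair was taken per gene, and the 10 with the most reads in their lower library were led by an intron of Actr3b, a gene of the actin-related protein family, at chr5:26022075-26023447 (GRCm39, as all regions below). It held 142, 203 and 227 T set reads in NC, TGF-b and TGF-b with siRNA, and 243, 326 and 246 S set reads. Dnpep, an aminopeptidase gene, had its pair at the promoter, at chr1:75293995-75294752, with 119, 203 and 270 T set reads and 38, 97 and 86 S set reads. Ripk2, a kinase of innate immune signalling, had 70, 134 and 46 T set reads and 25, 99 and 75 S set reads at its promoter. The neighbouring region of A530072M11Rik (66, 127 and 37 T set reads) lies within the same window and is no separate observation. Peg3, an imprinted zinc finger gene, had 87, 108 and 109 T set reads in an intron near its start and 21, 92 and 86 S set reads. Normalized density was higher under TGF-b than in NC in both sets at Dnpep, Ripk2 and Peg3, whereas in the S set of Actr3b it was 140 against 143. Pairs with no gene assigned were not ranked, and some of them had more reads than these. The remaining 5 were Ppp2r3d, Gm33838, Gm12735, AKAP17A and Gm56549, and at Gm33838 both sets had fewer reads under TGF-b (136 against 178 and 379 against 601).

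The T only and S only regions with the most reads were taken in the same way, among regions with an assigned gene. Of the 5 T only regions, 4 belonged to genes that also had a co-occupied region. These were Ppp2r3d (237 reads), Sp1 (232 reads), 4932412D23Rik (196 reads) and Ntmt1 (188 reads). The fifth was in Dazap1 (216 reads), next to a co-occupied pair assigned to Gamt. Each of the 5 lay within 1 kb of a co-occupied pair, centre to centre, so that their 2 kb windows share reads with it and their counts are not separate observations. Of the 5 S only regions, those of Gm12735 (140 reads), Gm56549 (98 reads) and ENSMUSG00000095041 (152 reads) belonged to genes with a co-occupied region and lay within 2 kb of it. Those of Mroh2a (105 reads) and Eif4enif1 (105 reads) did not.

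A gene was counted as co-occupied where both regions of a pair were assigned to it, which held for 2550 of 24258 genes in the tables (10.5%). Another 3082 (12.7%) had members of both sets without such a pair, 9674 (39.9%) had T set members only, 1991 (8.21%) had S set members only, and the rest had none. These shares are the background for the lists below, which are short, and whose intervals are wide. Listed symbols that no region was assigned to are left out of the counts. Long genes hold more regions, and gene length was not taken into account.

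Reads below are not scaled to depth, and the log2 ratio of normalized density can differ from them in sign. With siRNA it was 0.04 at Vgll3, 0.30 at Tgfb1i1, 0.14 at Smurf1 and 0.04 at Piezo2 in the T set, although fewer reads were counted than under TGF-b alone, and it was close to 0 at Tagln.

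Targets of SRF and its MRTF cofactors had an overlap in 6 of 24 genes, 25% (11.999 to 44.9). Vcl encodes vinculin, which ties actin to focal adhesions, and its promoter pair at chr14:20979024-20979503 held 31, 76 and 36 T set reads in NC, TGF-b and TGF-b with siRNA. Its S set region held 13, 29 and 20 reads. Myh9, the heavy chain of non-muscle myosin, had 105, 130 and 87 T set reads and 7, 28 and 37 S set reads at chr15:77726368-77726820. At both genes the normalized density was higher under TGF-b than in NC in both sets. Actn1, an alpha-actinin that crosslinks actin, had 16, 67 and 15 T set reads and 10 and 21 S set reads in NC and TGF-b. Tgfb1i1, a focal adhesion adaptor also known as Hic-5, had 3, 26 and 23 T set reads and 6, 26 and 8 S set reads. Wdr1, which promotes actin disassembly, had 20, 42 and 16 T set reads and 13 and 26 S set reads. Fhl2, a LIM domain cofactor, had 13, 28 and 14 T set reads and 21, 23 and 14 S set reads. T set reads and normalized density were thus higher under TGF-b than in NC at all 6 genes, and so was the S set density but for that of Fhl2, which was 9.93 against 13.3. Over all pairs, selected on the TGF-b density, the T set was higher under TGF-b in 66.5% and the S set in 69.1%, so that little can be read from 6 genes. The other targets included 17 with T set members only, among them Acta2, Tagln, Cnn1, Myl9, Actb and Srf itself, and Egr3 had S set members only.

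YAP/TAZ targets had an overlap in 3 of 23 genes (Amotl2, Rbms3 and Tead1), 13.04% (4.54 to 32.1), while 17 had T set members only. Among the latter was Ccn2, encoding connective tissue growth factor, whose densest region held 150, 115 and 54 T set reads at its first exon. Ccn1, encoding a related matricellular protein, had 39 and 47 T set reads in NC and TGF-b at its promoter. Ankrd1, a muscle ankyrin repeat gene, had 52, 25 and 32 T set reads there. No S set region was listed at any of these 3 genes, and at Ccn2 and Ankrd1 the T set had fewer reads under TGF-b than in NC.

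Genes of the TGF-b pathway had an overlap in 5 of 16 cases, 31.2% (14.2 to 55.6), and these encode a receptor, its signal transducers and the ligases that degrade them. Tgfbr1, the type I receptor, had 24, 50 and 33 T set reads and 12, 29 and 16 S set reads at its promoter, at chr4:47352913-47353206. Smad3, a receptor-activated SMAD, had 37, 52 and 20 T set reads and 3, 24 and 8 S set reads at its promoter. Smad2, its close relative, had 13, 66 and 13 T set reads and 15, 21 and 40 S set reads, and its S set density was 9.08 under TGF-b against 9.69 in NC. Smurf1, a ubiquitin ligase of the pathway, had 73, 42 and 33 T set reads and 17 and 17 S set reads in an intron. Smurf2 was the fifth. The ligand genes Tgfb1 and Tgfb2, the receptor gene Tgfbr2 and the inhibitory Smad6 and Smad7 had T set members only, and Smad4 had none.

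Of the factors and cofactors themselves, 4 of 19 had an overlap, 21.1% (8.51 to 43.3): Mrtfb, Tead1, Tead3 and Vgll3. Vgll3, a TEAD cofactor, had 27, 60 and 44 T set reads and 9, 35 and 42 S set reads at its promoter, at chr16:65611791-65612170. Tead3 had 94, 38 and 23 T set reads and 5, 27 and 15 S set reads at an intronic region assigned to -4858 bp of its start. The 2 sets thus moved in opposite directions between NC and TGF-b there. Wwtr1, the gene of TAZ, had 41, 65 and 25 T set reads at its promoter and no S set region listed. Srf had 23 and 51 T set reads upstream of its start, and its densest S set region, with 9 and 11 reads, fell short of the threshold. Piezo2 had T set and S set members apart, with 33, 26 and 19 T set reads at one and 2, 20 and 4 S set reads at the other. Tet3 had a weak T set region of 6, 10 and 0 reads.

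**Figure D5:**
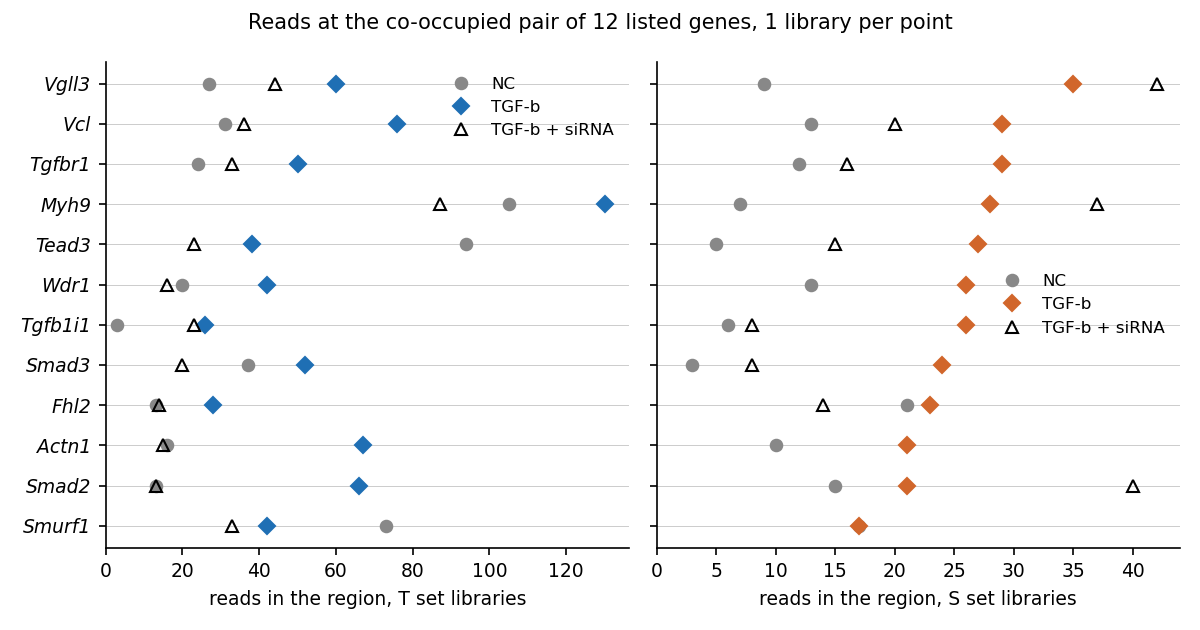
Reads in the co-occupied T set region (left) and S set region (right) of 12 listed genes, with 1 point per library: NC (grey circles), TGF-b (filled diamonds) and TGF-b with siRNA (open triangles). Reads are not scaled to depth; the S set siRNA point is missing where the siRNA table listed no region, as at Actn1, and at Smurf1 the NC and TGF-b points of the S set coincide at 17.

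Of 18 myofibroblast and matrix genes in the tables, 12 had T set members only, such as Acta2, which encodes smooth muscle actin and had 35, 36 and 8 T set reads. Tagln, which encodes the actin-binding transgelin, had 15, 38 and 27 T set reads at its promoter. Col1a1, Col1a2 and Fn1 belonged to the same 12, and Postn, Fap, Cilp and Col3a1 had no member of either set.

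Markers of cell types were read the same way, although occupancy is no measure of expression. Of all genes in the tables, 63.1% had a T set member. Of 10 listed fibroblast markers 8 were assigned any region, and Tcf21 and Thy1 were not. Of these 8, 7 had a T set member (Lum had none) and 1, Ddr2, an overlap. Of cardiomyocyte markers 3 of 10 had a T set member and 1, Ryr2, an overlap, while Myh6, Tnnt2 and 5 more had no member. All 8 endothelial markers had T set members, and 0 of 8 had an overlap (0 to 32.4%). Of 7 listed leukocyte markers 5 were assigned any region, Cd68 and Lyz2 were not, and 0 of these 5 had an overlap. The part of other cell types in the result was not tested.

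Most co-occupied pairs also carried signal in NC. Density in NC was at least 5 in both sets in 65.1% of pairs (63.5 to 66.6), in the T set alone in 21.2%, in the S set alone in 8.78% and in neither in 4.90% (177 pairs). Promoters made up 46.3% of the first class and 27.7% of the last. Signal in NC was also common in single-set regions. At a TGF-b density of 5 to 7, NC density was at least 5 in 60.6% of co-occupied T set and 45.1% of T only regions. At 20 to 50 the shares were 98.3% and 96.2%. In the S set they were 61.5% and 43.6% at 5 to 7, and 98.6% and 98.8% at 20 to 50. Density was at least 5 in all 6 libraries in 1545 pairs, of which 56.2% were promoter pairs, and it was so in only the 2 TGF-b libraries in 43 pairs. These are 42.8% and 1.19% of all pairs, and 55.6% and 1.548% of the 2778 pairs found in both siRNA tables. Density was higher under TGF-b than in NC in both sets in 49.9% of pairs, in the T set alone in 16.6%, in the S set alone in 19.3% and in neither in 14.3%. The rule used the TGF-b density, which pushes these directions upward. The median log2 ratio of TGF-b to NC was 0.37 in co-occupied and 0.39 in T only regions, and 0.39 in co-occupied and 0.44 in S only regions.

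The siRNA libraries did not enter the rule. The siRNA tables list regions called under TGF-b or under siRNA with TGF-b, and every region that had been called in the TGF-b library was listed there. Regions called in NC alone were mostly not, so that the siRNA values below leave most of them out and the shares found are no result. The log2 ratio of siRNA with TGF-b to TGF-b alone shares its denominator with the rule. Its median in the S set was -0.14 (-0.16 to -0.11) in co-occupied regions and -1.27 (-1.27 to -1.26) in S only regions, against -0.21 over the whole table. In the T set it was -0.40 (-0.44 to -0.36) and -0.87 (-0.87 to -0.86), against 0.97 over the whole table.

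The groups differ in density and in the library where a region was called, so the values were also taken within both. Among S set regions called in the TGF-b library and not in NC, the median was -0.22 in 484 co-occupied and -1.26 in 7171 S only regions of density 5 to 7. It was -0.25 and -1.34 at 7 to 10, -0.30 and -1.36 at 10 to 20, and -0.26 and -1.29 at 20 to 50, with 103 S only regions. The siRNA density was at least 5 in 66.3% of co-occupied and 16.9% of S only regions of 5 to 7, a difference of 49.4 points (45.0069 to 53.6), and the difference was 34.7 points (31.8 to 37.5) at 10 to 20. Among S set regions called in both libraries the median was 0.19 in co-occupied and -0.90 in S only regions of 5 to 7, and -0.02 and -0.90 at 10 to 20. In these classes, up to a density of 50, the S set ratio was thus lower in S only regions. At 50 or more there were 9 and 3 S only regions in the 2 classes.

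In the T set the gap was smaller and closed with density. Among regions called in the TGF-b library and not in NC, the median was -0.54 in co-occupied and -1.42 in T only regions of 5 to 7, -0.54 and -0.87 at 10 to 20, and -0.73 and -0.66 at 20 to 50. Among regions called in both it was -0.03 and -0.43 at 5 to 7, -0.27 and -0.53 at 10 to 20, and -0.47 and -0.52 at 20 to 50. Each of these is a description of 1 library per treatment, so that the siRNA and the library cannot be told apart.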

How the data were processed

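CUT&Tag libraries of primary mouse cardiac fibroblasts were read from 4 deposited tables, each comparing 2 libraries of 1 set. The submitters' processing notes name BWA 0.7.12 and mm10, whereas the study's methods name Bowtie2 and GRCm39. Region ends (up to 156595471 on chromosome 4, past the GRCm38 length of 156508116) lie beyond GRCm38, so coordinates are given as GRCm39. The deposited density is a signal that the authors rescaled along a straight line so that peaks shared by both libraries of a table centre on 0; it is not scaled to library size, and tables were normalized separately. The reads behind it were recovered as whole numbers (within 0.1) in 99.96% to 99.99% of regions, counted in windows of 2 kb. The deposited tables also hold the authors' fold changes and p-values, which were not used. The authors' annotation and gene assignment were taken as deposited.

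Members were chosen on a density of at least 5 in each TGF-b library and an overlap of at least 1 bp. The members, the gene lists and the motifs were chosen with earlier results of these data known. Named genes were the 10 pairs with the most reads in their lower library and the 5 T only and S only regions with the most reads (all under 500 reads and with an assigned gene, 1 per gene), up to 12 listed genes with an overlap, and a preset list. Shares carry 95% Wilson intervals, differences Newcombe intervals and medians rank intervals, which cover counting error only; PCR copies are not independent molecules. No p-value was computed, since each group has 1 library. Motif letters were searched in RefSeq promoters (GRCm38.p6, 250 bases before to 50 after a start), matched by symbol or synonym. Overlap and read recovery were tested on simulated data. Python 3.11.15, pandas 2.3.3, numpy 2.4.6, scipy 1.17.1 and matplotlib 3.10.9 were used. Thresholds of 3, 10 and 20, other overlap rules, peak classes, equal numbers of regions and other tables were tried as alternatives; siRNA ratios within peak class and density were added after seeing the data. An item withheld from the text is not reported here.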

Additional observations from a re-analysis of the deposited data

Results flagged for a closer look

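Mitochondrial regions were left out of all comparisons, and their density was slightly higher under TGF-b than in NC, which is signal outside the main measurement. The median log2 ratio was 0.087 over 13 T set regions (8 of them higher) and 0.079 over 11 S set regions (6 of them higher). For reads, which are not scaled to depth, the same median was 0.85 for T and 0.29 for S, so its size depends on the scaling. The T set regions held 119591 to 805066 reads under TGF-b and 80633 to 381628 in NC, and the S set regions 44839 to 261727 and 50873 to 214453. Each value rests on 1 library per treatment, and its source was not tested.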

How the results depend on the processing

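Of 70 recomputed values, none changed direction and 38 moved by more than their counting interval or, for numbers of regions and genes, by over 1.5 times. With thresholds of 3, 10 and 20 the co-occupied share was 5.38%, 8.54% and 5.94% of T set members and 12.8%, 35.2% and 46.9% of S set members. The promoter difference from T only was 28.5 points at a threshold of 3 and 2.51 at 20, and that from S only was 33.5, 53.3 and 42.0 points. At 10 and 20 there were 1348 and 235 co-occupied T set regions at 1025 and 140 genes. With an overlap of 50% of the shorter region the shares were 6.19% and 14.6% and the differences 37.5 and 45.7 points. With centres within 1 kb there were 5656 regions, shares of 11.03% and 22.2%, and differences of 26.8 and 35.3 points. With regions called in the TGF-b library or both they were 7.79%, 15.1%, 43.3 and 52.9 points. With equal numbers of regions they were 13.4%, 13.03%, 33.6 and 51.3 points. With densities from the siRNA tables the T set share was 13.3%. With promoters taken by distance of 1 kb the differences were 42.8 and 53.6 points. With at least 12 reads in both libraries, an alternative chosen after seeing the data, the shares were 9.71% and 14.7% and the difference from S only 47.4 points. The cause of these moves was not tested, beyond the changed number of regions that each rule admits. Keeping only autosomes, or leaving out regions of 500 reads or more moved none of these values past its interval.

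No paired analysis was possible because the groups have 1 library each. Motifs in windows around the regions were not run, since no GRCm39 genome was used here. A single region near the threshold rests on 9 T set or 12 S set reads. The main limits are the single library per group, the conflicting names of the siRNA target, the unknown depth and the overlapping 2 kb windows.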

Other observations

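Gene families, grouped by symbol after the results were known, differed in how often they had a co-occupied region, against 10.5% of all genes. Zinc finger genes (Zfp and Zbtb, mostly DNA-binding proteins) had one in 62 of 314 cases, 19.7% (15.7 to 24.5). Genes of DNAJ cochaperones had one in 9 of 39, 23.1% (12.6 to 38.3), and proteasome subunit genes in 7 of 43, 16.3% (8.12 to 30.0). Subunits of complex I, the first complex of the respiratory chain, had one in 4 of 37, 10.8% (4.29 to 24.7), and cytosolic ribosomal protein genes in 3 of 55, 5.45% (1.87 to 14.9). Collagen genes had an overlap in 1 of 43 cases, 2.33% (0.412 to 12.1). A T set member was present at 36 of the 43, 83.7%, against 63.1% of all genes. Olfactory and vomeronasal receptor genes had one in 4 of 573, 0.698% (0.272 to 1.78), but 421 of them had no region of either set past the threshold. Keratin genes had one in 0 of 35 (0 to 9.89%). Members of a family can share sequence and lie side by side, so these counts are not independent.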
